A study of Mus musculus with 12 samples.

Results

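The cytosolic and mitochondrial heat shock chaperones were followed as 10 genes, chosen by name: Hspa1a, Hspa1b, Hspa8, Hsp90aa1, Hsp90ab1, Dnaja1, Dnajb1, Hsph1, Hspd1 and Hspe1. All 10 are among the 21834 protein-coding genes of the deposited count table. RNA was sequenced from BV2 cells, an immortalized mouse microglial line, which all carried a lentiviral shRNA vector and had been selected with puromycin. The shCtrl line carried a control shRNA and the shAnxa2 line 1 shRNA against Anxa2, the gene of the phospholipid-binding protein annexin A2. Cells of each line were left without treatment (CTRL) or taken through oxygen-glucose deprivation and reoxygenation (OGD/R), a culture model of ischemia and reperfusion, with 4 h of deprivation and 12 h of reoxygenation by the sample labels (the study's methods give a longer reoxygenation for BV2 cells). The 4 groups, shCtrl-CTRL, shCtrl-OGDR, shAnxa2-CTRL and shAnxa2-OGDR, had 3 libraries each. Groups were taken from the sample titles. A second set of labels gives the knockdown to all OGDR samples and the wild type to all CTRL samples, and conflicts with the titles.

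Heat shock proteins are molecular chaperones that bind unfolded or newly made proteins and help them fold. HSP70 proteins work in cycles of ATP binding and hydrolysis that J-domain proteins (HSP40) start and nucleotide exchange factors such as HSP110 reset, and HSP90 acts later on a set of client proteins that includes many kinases and receptors. In the mitochondrial matrix, the HSP60 ring and its HSP10 lid enclose proteins while they fold. Many of these genes are transcribed at a basal level and more strongly when heat shock factor 1 (HSF1) binds heat shock elements near their start sites, which are repeats of the unit nGAAn in alternating orientation.

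The libraries held 19521877 to 27288843 counts, and expression varied between replicates by 5.35% beyond counting error (common biological coefficient of variation). Anxa2 was lower in the shAnxa2 line, with 171.7 ± 6.36 CPM (mean ± SD, n = 3, as for all values with ± that follow) without and 278.9 ± 24.3 CPM with OGD/R in shCtrl cells, against 40.4 ± 4.86 and 19.6 ± 1.26 CPM in shAnxa2 cells. CPM put the counts of all libraries on 1 common size, which takes the totals and the TMM factors of edgeR into account. The 12 microglia and macrophage markers examined were all detected, with a summed level of 1865 to 2316 CPM. The 6 neuron and 5 astrocyte markers each stayed under 1 CPM on average in every group, and 4 neuron markers and 1 astrocyte marker had 0 counts. Of the 5 endothelial markers, Flt1 alone held most of the summed level, which was 193.5 to 220.3 CPM in untreated and 139.9 to 154.7 CPM in OGD/R-treated shCtrl cells, and 152.8 to 166.8 and 172.6 to 184 CPM in shAnxa2 cells. It thus moved in the order of several chaperones below, and its part in them was not tested. The 5 oligodendrocyte markers summed to 29.3 to 36.8 CPM, mostly from Cnp. Over all genes tested, the shAnxa2-OGDR libraries lay nearest to the shCtrl-CTRL libraries, with a mean distance of 0.343 on the log2 scale (root mean square over genes), against 0.419 to shAnxa2-CTRL. The shCtrl-OGDR libraries lay nearest to shAnxa2-CTRL, at 0.374 against 0.506 to shCtrl-CTRL. Within groups the distance was 0.186 to 0.209. Anxa2 was low in both shAnxa2 groups. By the labels it rose with OGD/R in the shCtrl line (log2 fold change 0.70, SE 0.0643, adjusted p = 1.21e-09 from edgeR). In the shAnxa2 line it fell (−1.04, SE 0.0827, adjusted p = 3.05e-10 from edgeR). What this says of the treatment labels of the shAnxa2 groups was not tested.

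Most of the tested genes that hypoxia is known to induce moved in opposite directions with OGD/R in the lines as labelled. Of 20 such genes, listed after the data had been seen, 18 were tested, and 13 were higher and 2 lower in shCtrl-OGDR than in shCtrl-CTRL, while 1 was higher and 13 were lower in the libraries labelled shAnxa2-OGDR than in those labelled shAnxa2-CTRL (edgeR's test, as described with the first comparison below). Of all genes tested, 32.4% were called higher and 31% lower in the first comparison and 28.2% and 26.8% in the second. Ndrg1, a stress-response gene, had 10.8 ± 1.37 CPM in shCtrl-CTRL, 72.2 ± 7.75 in shCtrl-OGDR, 48.8 ± 0.996 in shAnxa2-CTRL and 8.40 ± 1.34 in shAnxa2-OGDR. Bnip3, a mitophagy receptor, had 67.1 ± 8.76, 215.5 ± 33.5, 181.7 ± 10.1 and 39.7 ± 2.62 CPM, and Vegfa, an angiogenic growth factor, 37.9 ± 1.82, 71.5 ± 1.42, 63.1 ± 2.08 and 34.4 ± 0.753 CPM. The libraries labelled as untreated thus held the higher level of these 3 genes in the shAnxa2 line and the lower level in the shCtrl line. P4ha1 (−0.25 on the log2 scale with OGD/R in the shCtrl line and 0.04 in the shAnxa2 line) did not follow them. Neither did Pfkfb3 (−0.20 and 0.43). By the labels the OGD/R libraries were taken after 12 h of reoxygenation, so these levels are not those during deprivation. Of 7 inflammatory markers that the study also assayed by other methods, 5 were tested and did not share 1 direction. Nos2, the inducible nitric oxide synthase, had 3.11 ± 0.648, 54.7 ± 5.16, 87.6 ± 6.12 and 7.43 ± 1.73 CPM in the same order of groups. Tnf was at −0.74 on the log2 scale with OGD/R in the shCtrl line and at 0.37 in the shAnxa2 line, Il1b at −1.31 and 0.23, Ptgs2 at −0.40 and −0.26, and Mrc1 at −0.19 and −0.18. By edgeR's test, Il1b in the shAnxa2 line (adjusted p = 0.325) and Mrc1 in the shCtrl (adjusted p = 0.251) and shAnxa2 lines (adjusted p = 0.414) were not called. Whether the treatment labels of the shAnxa2 groups are exchanged was not tested, and the groups keep the names of their titles throughout. With exchanged labels, every OGD/R change in the shAnxa2 line would turn its sign, and the comparisons between the lines and the interaction would change as well. The comparison within the shCtrl line uses neither shAnxa2 group for its difference, and gave the same 8 calls with only its 2 groups fitted.

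Because HSF1 acts through heat shock elements, the 250 bases upstream of each start site were searched for 2 units in opposite orientation, GAANNTTC (head to head) or TTCNNGAA (tail to tail), and for 3 units, GAANNTTCNNGAA. The 2-unit motifs read the same on both strands, so 1 search covers both, while the 3-unit motif was searched on both strands. A 3-unit match also holds both 2-unit motifs. RefSeq entries were matched for 7 of the 10 genes (not Hspa8, Hsp90aa1 and Hsp90ab1), and the sequences below are RefSeq's, of the build GRCm38.p6, read 5′ to 3′ on the gene's strand. Among 27025 genes, 6.79% held the head-to-head motif in these 250 bases, 7.18% the tail-to-tail motif and 0.403% the 3-unit motif. Of the chaperones, Hspa1a, Hspa1b and Dnaja1 each held 1 head-to-head match and Hsph1 held 1 tail-to-tail match. The stretch before Hspe1 held 3 overlapping 2-unit matches and 2 three-unit matches, one on each strand. Hspd1, its divergent neighbour, has 2 listed starts. The same matches lie at −144 to −127 of the nearer start of Hspd1, and the window before the farther start held none, as did that of Dnajb1. These 4 sequences are shown because they carry the matches, in capitals. For Hspe1 it is the 215 bases between its start and the nearer start of Hspd1.
Hspa1b (chr17:34959239-34959488, minus strand, match from −104 to −97 of the start): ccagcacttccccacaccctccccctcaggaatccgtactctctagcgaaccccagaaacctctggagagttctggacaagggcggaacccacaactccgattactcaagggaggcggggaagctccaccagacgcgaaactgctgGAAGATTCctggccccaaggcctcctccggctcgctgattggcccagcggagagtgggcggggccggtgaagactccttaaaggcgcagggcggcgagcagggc
Dnaja1 (chr4:40722218-40722467, plus strand, match from −124 to −117): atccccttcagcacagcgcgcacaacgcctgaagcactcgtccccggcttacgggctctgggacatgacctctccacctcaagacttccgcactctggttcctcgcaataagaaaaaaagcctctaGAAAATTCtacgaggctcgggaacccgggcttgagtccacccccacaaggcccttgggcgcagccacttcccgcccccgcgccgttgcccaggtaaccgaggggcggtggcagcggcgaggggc
Hsph1 (chr5:149636337-149636586, minus strand, match from −33 to −26): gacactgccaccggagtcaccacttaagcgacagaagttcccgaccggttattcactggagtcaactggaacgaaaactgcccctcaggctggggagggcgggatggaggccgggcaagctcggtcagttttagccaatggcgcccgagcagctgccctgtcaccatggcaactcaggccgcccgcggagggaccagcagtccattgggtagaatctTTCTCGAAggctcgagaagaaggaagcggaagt
Hspe1 (chr1:55087933-55088147, plus strand, matches from −89 to −72): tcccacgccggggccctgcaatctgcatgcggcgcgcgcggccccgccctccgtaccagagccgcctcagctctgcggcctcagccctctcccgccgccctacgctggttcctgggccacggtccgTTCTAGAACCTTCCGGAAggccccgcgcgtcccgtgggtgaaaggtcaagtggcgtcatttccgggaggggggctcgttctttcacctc
The 250 bases before Hspa1a differed from those before Hspa1b at 3 positions, T44C, C47T and G249T, with the base of Hspa1b first and positions counted from 1 at the 5′ end. A match is a description of letters and not a measured binding site.

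Hspa8 (HSC70, ENSMUSG00000015656, chromosome 9, plus strand, 40712280 to 40721383 as the table gives it, build mm39 by the submitters' notes, as for the genes that follow) encodes the constitutive cytosolic HSP70 and was the most counted of the 10 genes in every library. Untreated shCtrl libraries held 85295, 99369 and 104182 counts of it, and shCtrl-OGDR libraries 47456, 50677 and 36383. It had 44075, 42206 and 53177 counts in shAnxa2-CTRL and 73879, 91784 and 71559 counts in shAnxa2-OGDR. Scaled, the shCtrl line had 3678 ± 137 CPM without and 1885 ± 43.1 CPM with OGD/R, and the shAnxa2 line 2100 ± 63.0 CPM without and 3630 ± 150 CPM with OGD/R. The untreated shCtrl and the OGD/R-treated shAnxa2 libraries were high, the other two groups were low, and the high and low groups did not overlap.

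Hspa1a (ENSMUSG00000091971, chromosome 17, minus strand, 35188166 to 35191132) and Hspa1b (ENSMUSG00000090877, chromosome 17, minus strand, 35175412 to 35178214) encode the stress-inducible HSP70 and are neighbouring near-identical copies. Hspa1a had 2 counts in 1 shCtrl-CTRL library, 1 count in 1 shAnxa2-CTRL library and 0 in the other 10 libraries. A count of 0 allows a level of up to 0.11 to 0.154 CPM at these depths (3 counts, counting error only), so no fold change is given. Hspa1b had 80, 55 and 124 counts in shCtrl-CTRL, 32, 48 and 42 in shCtrl-OGDR, 32, 36 and 44 in shAnxa2-CTRL and 57, 41 and 68 in shAnxa2-OGDR. Its mean level was 3.31 ± 1.27 CPM, 1.75 ± 0.456 CPM, 1.68 ± 0.101 CPM and 2.61 ± 0.873 CPM in these groups. As for Hspa8, shCtrl-CTRL and shAnxa2-OGDR had the higher means, but of the 4 comparisons only that of the untreated groups of the lines was without overlap. Of the 100-base windows of the longest Hspa1b transcript, 49.9% also occur in Hspa1a (GENCODE M21 transcripts), so the split of reads between the copies is uncertain. Summed, the pair had 80, 57 and 124 counts in shCtrl-CTRL and 33, 36 and 44 counts in shAnxa2-CTRL, and the counts in the OGDR groups were those of Hspa1b alone.

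Hsph1 (HSP110, ENSMUSG00000029657, chromosome 5, minus strand, 149537752 to 149559841) encodes a large HSP70 relative that exchanges nucleotides on HSP70. It had 4184, 4926 and 5073 counts in shCtrl-CTRL, 2210, 1961 and 1492 in shCtrl-OGDR, 1934, 1958 and 2163 in shAnxa2-CTRL and 3328, 4065 and 2958 in shAnxa2-OGDR. Scaled, its level was 180.6 ± 5.84, 79.2 ± 6.28, 91.6 ± 4.90 and 158.3 ± 13.5 CPM. As with Hspa8, the high and low groups did not overlap. Dnaja1 and Dnajb1 encode J-domain co-chaperones that bring unfolded proteins to HSP70 and stimulate its ATPase. Dnaja1 (ENSMUSG00000028410, chromosome 4, plus strand, 40722150 to 40737149) had 2469, 3089 and 3081 counts in shCtrl-CTRL, 1483, 1645 and 1176 in shCtrl-OGDR, 1428, 1527 and 1903 in shAnxa2-CTRL and 2300, 2756 and 2047 in shAnxa2-OGDR. Its level was 109.9 ± 5.82, 60.4 ± 2.39, 73.0 ± 2.91 and 108.7 ± 9.06 CPM, with shCtrl-OGDR the lowest group and no overlap between the high and low groups. Dnajb1 (ENSMUSG00000005483, chromosome 8, plus strand, 84334822 to 84339282) had 1950, 2172 and 2110 counts in shCtrl-CTRL, 1370, 1562 and 1233 in shCtrl-OGDR, 1530, 1472 and 1841 in shAnxa2-CTRL and 1680, 2052 and 1734 in shAnxa2-OGDR. Its level was 79.5 ± 1.95, 58.8 ± 4.84, 72.9 ± 1.997 and 83.8 ± 2.11 CPM. The shCtrl-OGDR libraries were low, and untreated shAnxa2 libraries lay closer to the high groups than they did for Dnaja1.

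The cytosolic HSP90 genes differed from each other. Hsp90aa1 (ENSMUSG00000021270, chromosome 12, minus strand, 110657039 to 110669162), the inducible isoform HSP90α, had 33961, 43824 and 43234 counts in shCtrl-CTRL, 26186, 27798 and 20949 in shCtrl-OGDR, 26314, 25476 and 29726 in shAnxa2-CTRL and 27263, 34169 and 24177 in shAnxa2-OGDR. Its level was 1538 ± 104, 1053 ± 25.5, 1231 ± 53.2 and 1307 ± 118 CPM, so that shCtrl-OGDR was the lowest group and the shAnxa2 groups overlapped each other. Hsp90ab1 (ENSMUSG00000023944, chromosome 17, minus strand, 45878701 to 45884197), the constitutive isoform HSP90β, had 28578, 38023 and 39197 counts in shCtrl-CTRL, 34549, 35391 and 27863 in shCtrl-OGDR, 28099, 29477 and 35627 in shAnxa2-CTRL and 25359, 35102 and 28515 in shAnxa2-OGDR. At 1343 ± 131, 1377 ± 44.1, 1403 ± 24.8 and 1357 ± 55.2 CPM, its 4 groups all overlapped.

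The mitochondrial pair had its higher means in the groups where Hspa8 was high, but in smaller steps and not all without overlap. Hspd1 (HSP60, ENSMUSG00000025980, chromosome 1, minus strand, 55116994 to 55127402), which encodes the folding ring, had 36096, 40057 and 41550 counts in shCtrl-CTRL, 29676, 31382 and 23156 in shCtrl-OGDR, 28304, 30004 and 33039 in shAnxa2-CTRL and 30839, 38901 and 28548 in shAnxa2-OGDR. Its level was 1501 ± 30.3, 1182 ± 19.0, 1380 ± 65.9 and 1502 ± 102 CPM. Hspe1 (HSP10, ENSMUSG00000073676, chromosome 1, plus strand, 55127291 to 55130466), which encodes the lid, had 4184, 4957 and 4975 counts in shCtrl-CTRL, 3187, 3733 and 2814 in shCtrl-OGDR, 3199, 2974 and 4021 in shAnxa2-CTRL and 3491, 4640 and 3250 in shAnxa2-OGDR. Its level was 179.8 ± 4.36, 137.1 ± 10.8, 153.1 ± 8.79 and 173.4 ± 14.0 CPM. For both genes shCtrl-OGDR was the lowest group, and the shAnxa2 groups overlapped. The genes lie head to head and overlap by 112 bases in the table, and no strand setting of the counting is given in the sources used here.

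**Figure D1:**
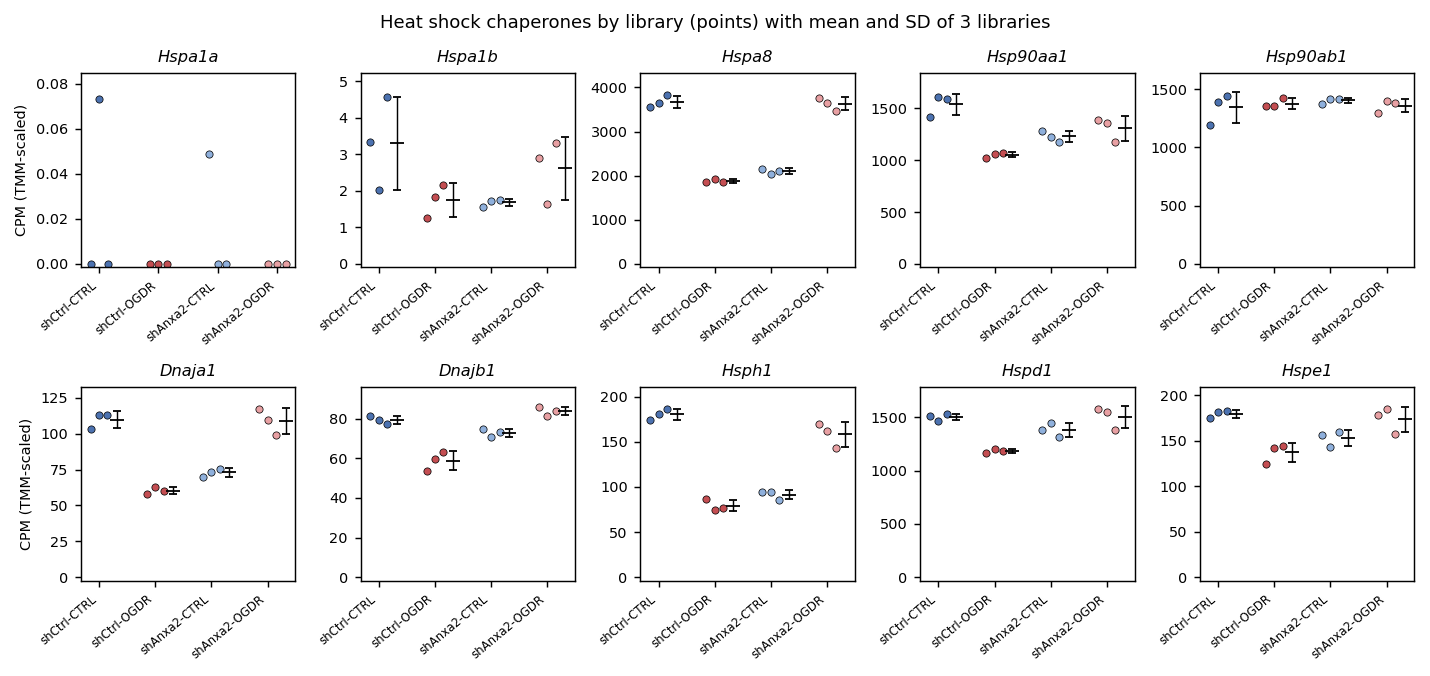
Level of each of the 10 chaperone genes (y axis, CPM scaled by TMM) in the 4 groups (x axis), with 1 point per library and a bar for the mean and SD of 3 libraries (no bar for Hspa1a, which has 3 counts in all). Hspa8, Hsph1 and Dnaja1 are high in shCtrl-CTRL and shAnxa2-OGDR and low in the other groups, while Hsp90ab1 stays between 1194 and 1441 CPM in all 12 libraries.

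Levels were compared between genes only per length, as reads divided by the summed length of the annotated exons and by depth (RPKM, lengths from GENCODE M21). In shCtrl-CTRL, Hspa8 was highest at 855 ± 31.8 RPKM (rank 28 of 21780 genes), followed by Hspd1 at 568 ± 11.5, Hsp90ab1 at 448 ± 43.7 and Hsp90aa1 at 391 ± 26.4. The HSP90 genes overlapped in this group. Hspe1 stood at 122.0 ± 2.96 RPKM, Hsph1 at 24.9 ± 0.804, Dnajb1 at 24.8 ± 0.609, Dnaja1 at 12.7 ± 0.675 and Hspa1b at 1.18 ± 0.454, and of these Hsph1 and Dnajb1 did not differ beyond their spread. The order changed after OGD/R in the shCtrl line, where Hsp90ab1 (459 ± 14.7 RPKM), Hspd1 (447 ± 7.20) and Hspa8 (438 ± 10.0) came together, with overlap between neighbours in the order, and Dnajb1 (18.4 ± 1.51) stood above Hsph1 (10.9 ± 0.865). In shAnxa2-CTRL the leading genes were likewise close, with Hspd1 at 522 ± 24.9, Hspa8 at 488 ± 14.7 and Hsp90ab1 at 468 ± 8.26 RPKM. In shAnxa2-OGDR Hspa8 again stood apart at 844 ± 34.9 RPKM (rank 30), above Hspd1 at 568 ± 38.6, Hsp90ab1 at 453 ± 18.4 and Hsp90aa1 at 333 ± 29.9. These orders rest on the summed exon length, which was 7266 bases for Hsph1, 3204 for Dnajb1 and 4301 for Hspa8. Their longest coding transcripts have 3802, 2996 and 2394 bases, and orders by transcript length were not computed. The 10 genes together took 0.577% to 0.892% of the counts of a library. Reads that fit several genes bear on these levels: 63.4% of the 100-base windows of the longest Hspa8 transcript occur in other annotated genes, 47.6% for Hsp90aa1, 26.9% for Hspd1, 24.0% for Dnaja1 and 22.4% for Hspe1, and 0% for Hsp90ab1, Dnajb1 and Hsph1. Whether such reads were dropped or assigned is not given in the sources used here, and their part in the levels was not tested.

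The next comparison asks what OGD/R did to these genes in cells with the control shRNA. After OGD/R in the shCtrl line, 8 of the 9 tested chaperones fell and 0 rose. Hsph1 fell most, to 0.439 of its untreated level, followed by Hspa8 (0.512), Hspa1b (0.522) and Dnaja1 (0.549), while Hsp90aa1 and the mitochondrial genes fell less. In bulk RNA, fewer cells that express a gene and less RNA per cell cannot be told apart. The tests are edgeR's quasi-likelihood test on the 11626 genes with at least 0.5 CPM in at least 3 libraries, fitted over all 12 libraries, with Benjamini-Hochberg adjustment over all genes tested. Genes were called at an adjusted p under 0.05. Of all genes tested, 31% were called lower and 32.4% higher in this comparison, and the median log2 fold change was −0.55 over the chaperones and 0.00 over all genes. Hsph1 had a log2 fold change of −1.19 (SE 0.0614, adjusted p = 4.82e-14), Hspa8 −0.96 (SE 0.0411, adjusted p = 1.77e-15) and Dnaja1 −0.86 (SE 0.0594, adjusted p = 7.21e-12) by this edgeR test. Hspa1b had −0.94 with a larger error (SE 0.275, adjusted p = 0.00466), and without 1 shCtrl-CTRL library (replicate 3) it was −0.62 (adjusted p = 0.0715). Among the smaller changes, Hsp90aa1 had −0.55 (SE 0.0566), Dnajb1 −0.44 (SE 0.0559), Hspe1 −0.39 (SE 0.0607) and Hspd1 −0.35 (SE 0.0475), each with an adjusted p of at most 4.85e-06. Hsp90ab1 was at 0.04 (SE 0.0535, adjusted p = 0.573). Only Hsph1 also passed a log2 fold change of 1 in size, as did 6.73% of all genes tested. Without shCtrl-CTRL replicate 2 (−1.19) or without shCtrl-OGDR replicate 3 (−1.09), Hspa1b passed it as well, which makes 2 genes. The libraries of the 2 groups did not overlap for 7 of the 10 genes, and overlapped for Hspa1a, Hspa1b and Hsp90ab1. How many of all genes tested were without overlap was not counted, so this number is not set against a background.

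The same question in the Anxa2 knockdown line gave the opposite direction by the labels, as it did for most of the hypoxia-induced genes above. In the libraries labelled OGD/R of the shAnxa2 line, 6 of the 9 tested chaperones rose and 0 fell, against 28.2% of all genes tested called higher and 26.8% called lower. Hsph1 and Hspa8 rose to 1.73 times their untreated level and Dnaja1 to 1.49 times, and the remaining calls were small. The median log2 fold change was 0.20 over the chaperones and 0.00 over all genes. Hsph1 had 0.79 (SE 0.0615, adjusted p = 2.06e-10), Hspa8 0.79 (SE 0.041, adjusted p = 2.66e-13) and Dnaja1 0.57 (SE 0.0592, adjusted p = 1.94e-08) by the same edgeR test. Dnajb1 had 0.20 (SE 0.0557, adjusted p = 0.00392), Hspe1 0.18 (SE 0.0609, adjusted p = 0.0153) and Hspd1 0.12 (SE 0.0474, adjusted p = 0.0331). The call of Hspe1 was lost without shAnxa2-CTRL replicate 2 (0.13, adjusted p = 0.0963), without shAnxa2-OGDR replicate 1 (0.16, adjusted p = 0.0534) and without shAnxa2-OGDR replicate 2 (0.13, adjusted p = 0.118). That of Hspd1 was lost without each of 5 libraries, which were shCtrl-CTRL replicate 3 (adjusted p = 0.0508), shAnxa2-CTRL replicates 1 (0.0626) and 3 (0.154) and shAnxa2-OGDR replicates 1 (0.192) and 2 (0.163), and with 3 other settings. Hspa1b was at 0.61 (SE 0.297, adjusted p = 0.0873), Hsp90aa1 at 0.09 (SE 0.0565, adjusted p = 0.201) and Hsp90ab1 at −0.05 (SE 0.0535, adjusted p = 0.477). Hspa1b passed the threshold without shAnxa2-OGDR replicate 2 (0.87, adjusted p = 0.0169), and Hsp90aa1 without shAnxa2-OGDR replicate 3 (0.15, adjusted p = 0.0163). No chaperone passed a log2 fold change of 1 in size, as 3.54% of all genes did. The groups did not overlap for Hspa8, Dnaja1, Dnajb1 and Hsph1, and the share of all genes without overlap was not counted.

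Compared between the lines in libraries labelled as without OGD/R, 7 of the 9 tested chaperones were lower in the shAnxa2 line and 0 were higher, against 29.7% of all genes tested called lower and 29.5% called higher. Hsph1 was at 0.507 of its shCtrl level, Hspa1b at 0.511, Hspa8 at 0.571 and Dnaja1 at 0.664. The log2 fold change of shAnxa2-CTRL against shCtrl-CTRL was −0.98 for Hsph1 (SE 0.0611, adjusted p = 1.88e-12 from edgeR), −0.81 for Hspa8 (SE 0.041, adjusted p = 4.47e-14), −0.59 for Dnaja1 (SE 0.0588, adjusted p = 7.37e-09) and −0.97 for Hspa1b (SE 0.279, adjusted p = 0.0045). Without shCtrl-CTRL replicate 3, Hspa1b was at −0.65 (adjusted p = 0.0644). Hsp90aa1 had −0.32 (SE 0.0565, adjusted p = 3.2e-05), Hspe1 −0.23 (SE 0.0606, adjusted p = 0.00207) and Hspd1 −0.12 (SE 0.0474, adjusted p = 0.0311). The call of Hspd1 was lost without shCtrl-CTRL replicate 1 (adjusted p = 0.0624) or 3 (0.115), or without shAnxa2-CTRL replicate 1 (0.0593) or 3 (0.151). Dnajb1 was at −0.12 (SE 0.0554, adjusted p = 0.0558), and passed the threshold without shCtrl-OGDR replicate 1 (adjusted p = 0.0419) or 3 (0.0465). Hsp90ab1 was at 0.06 (SE 0.0535, adjusted p = 0.323). The median was −0.32 over the chaperones and 0.00 over all genes. No chaperone passed a log2 fold change of 1 in size, as 5.68% of all genes did, and 1 did without shCtrl-CTRL replicate 2 (Hspa1b, −1.23) and without shCtrl-CTRL replicate 1 or shAnxa2-CTRL replicate 1 or 2 (Hsph1, −1.008 to −1.002). The libraries of the 2 groups did not overlap for 8 of the 10 genes, all lower in shAnxa2-CTRL. Here too, the share of all genes without overlap was not counted.

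In libraries labelled OGD/R the lines differed the other way, with 7 of the 9 tested chaperones higher in the shAnxa2 line and 0 lower. Of all genes tested, 33.8% were called higher and 34.2% lower. Hsph1 stood highest, followed by Hspa8 at 1.93 times, Dnaja1 at 1.80 times and Dnajb1 at 1.43 times the level of shCtrl-OGDR. The 4 comparisons share groups, so they are not independent of each other. In log2 fold change this was 1.00 for Hsph1 (SE 0.0618, adjusted p = 7.24e-13 from edgeR), 0.95 for Hspa8 (SE 0.0411, adjusted p = 1.3e-15), 0.85 for Dnaja1 (SE 0.0598, adjusted p = 7.43e-12) and 0.51 for Dnajb1 (SE 0.0563, adjusted p = 1.82e-08). Hspd1 had 0.35 (SE 0.0475), Hspe1 0.34 (SE 0.061) and Hsp90aa1 0.31 (SE 0.0565), each with an adjusted p of at most 3.24e-05. Hspa1b was at 0.58 (SE 0.292, adjusted p = 0.0844), and at 0.84 (adjusted p = 0.015) without shAnxa2-OGDR replicate 2. Hsp90ab1 was at −0.02 (SE 0.0535, adjusted p = 0.753). The median was 0.51 over the chaperones and 0.00 over all genes. No chaperone passed a log2 fold change of 1 in size unrounded, as 10.1% of all genes did, and Hsph1 did without shCtrl-OGDR replicate 1 (1.06) or without shAnxa2-OGDR replicate 3 (1.05). The libraries of the 2 groups did not overlap for 7 of the 10 genes, and the share of all genes without overlap was not counted.

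**Figure D2:**
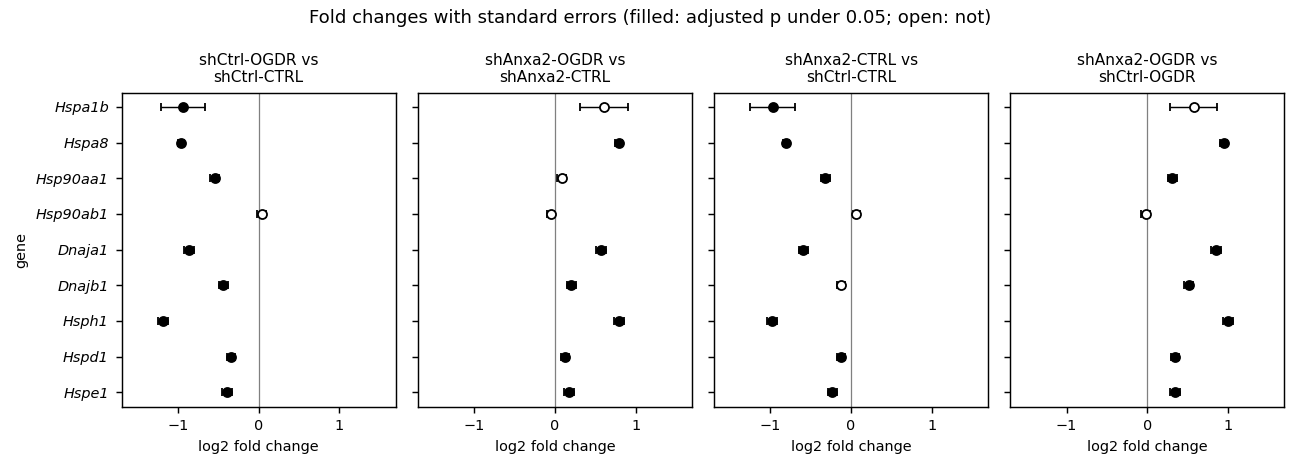
Log2 fold change (x axis) with its standard error for the 9 tested chaperone genes (y axis) in the 4 comparisons, with filled points for an adjusted p under 0.05 in edgeR's test and open points otherwise. By the labels, with OGD/R the points lie left of 0 in the shCtrl panel and right of 0 in the shAnxa2 panel, except Hsp90ab1, which stays between −0.05 and 0.06 in all 4 comparisons.

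The change with OGD/R was then compared between the lines directly, as an interaction (the log2 fold change in shAnxa2 minus that in shCtrl), which also rests on the labels of the shAnxa2 groups. For the hypoxia-induced genes it was above 0 for 2 and below 0 for 14 of the 18 tested, with a median of −1.02. The interaction was above 0 for 8 of the 9 tested chaperones and below 0 by the test for none, against 34.9% of all genes tested called above and 35.1% called below 0. The difference was 1.98 for Hsph1 (SE 0.0869, adjusted p = 1.08e-15 from edgeR), 1.75 for Hspa8 (SE 0.0581, adjusted p = 7.66e-18), 1.55 for Hspa1b (SE 0.405, adjusted p = 0.00161) and 1.44 for Dnaja1 (SE 0.0839, adjusted p = 1.92e-13). These 4 genes passed 1 in size, as did 21.5% of all genes tested. Dnajb1 differed by 0.64 (SE 0.0789), Hsp90aa1 by 0.63 (SE 0.0799), Hspe1 by 0.57 (SE 0.086) and Hspd1 by 0.47 (SE 0.0671), each with an adjusted p of at most 2.38e-06. The median was 0.64 over the chaperones and −0.01 over all genes. For Hsp90ab1 it was −0.08 (SE 0.0756, adjusted p = 0.334). The largest values were those of the HSP70 genes, Hsph1 and Dnaja1, and the differences between genes were not tested.

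Ratios of counts within a library do not depend on how libraries are scaled, and 4 such ratios, chosen after the levels were seen, compared partners. With 3 libraries against 3, the smallest two-sided p of an exact permutation test is 0.1, so these ratios cannot reach the threshold. The ratio of Hspa8 to Hsp90ab1 was 2.75 ± 0.203 (SD, n = 3) in shCtrl-CTRL, 1.37 ± 0.0631 in shCtrl-OGDR, 1.498 ± 0.0685 in shAnxa2-CTRL and 2.68 ± 0.209 in shAnxa2-OGDR. All 4 comparisons were without overlap (exact permutation p = 0.1 each). The ratio of the inducible to the constitutive HSP90 gene, Hsp90aa1 to Hsp90ab1, was 1.15 ± 0.0429, 0.765 ± 0.0179, 0.878 ± 0.0525 and 0.965 ± 0.114 in the same order, and only the shAnxa2 groups overlapped (exact permutation p = 0.3). Hsph1 to Hspa8 was 0.0491 ± 0.000442 in shCtrl-CTRL, above the 0.0421 ± 0.00405 of shCtrl-OGDR and the 0.0436 ± 0.00287 of shAnxa2-CTRL without overlap, and 0.0436 ± 0.00196 in shAnxa2-OGDR. Hspe1 to Hspd1, the lid to the ring, was 0.120 ± 0.00392, 0.116 ± 0.00753, 0.111 ± 0.0114 and 0.115 ± 0.00334, and all 4 comparisons overlapped (exact permutation p from 0.3 to 1).

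**Figure D3:**
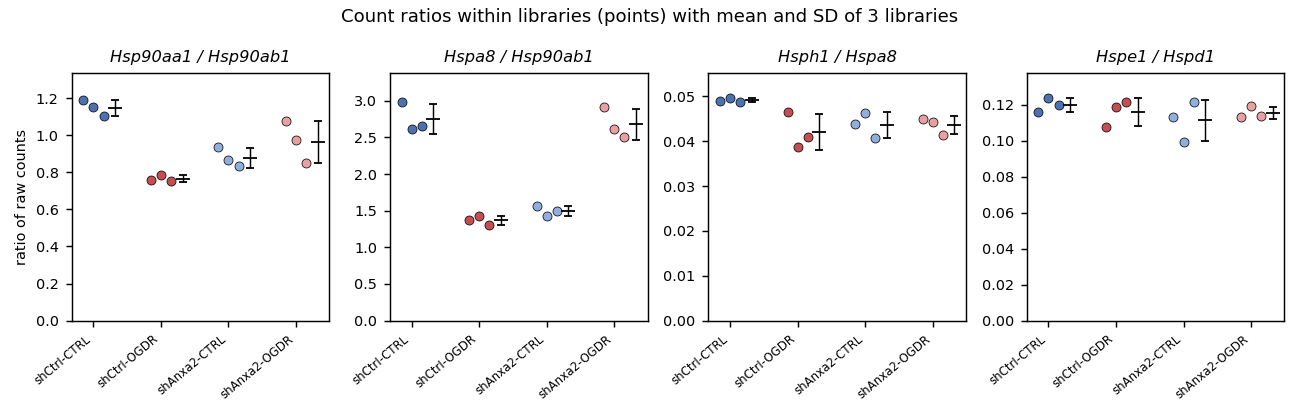
Ratio of raw counts of 2 genes within each library (y axis, no unit) in the 4 groups (x axis), with 1 point per library and a bar for the mean and SD of 3 libraries. Hspa8 to Hsp90ab1 falls into high groups (2.75 and 2.68) and low groups (1.37 and 1.498), while Hspe1 to Hspd1 stays between 0.0991 and 0.124.

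Other chaperone genes were taken from lists of their families. The helpers of HSP70 and HSP90 and the chaperones of the endoplasmic reticulum (ER) moved mostly in the direction of the 10 genes. Of 23 co-chaperones, 16 fell and 0 rose after OGD/R in shCtrl cells, and 14 rose and 1 fell in shAnxa2 cells, with medians of −0.28 and 0.22. Over all genes tested, 31% fell and 32.4% rose in shCtrl cells and 28.2% rose and 26.8% fell in shAnxa2 cells, with medians of 0.00. Without OGD/R 15 were lower and 3 higher in the shAnxa2 line, and after OGD/R 18 were higher and 0 lower, where 29.7% of all genes were lower and 29.5% higher without OGD/R and 33.8% higher and 34.2% lower after it. Ahsa1, which activates the HSP90 ATPase, fell with OGD/R in shCtrl cells (−0.77, SE 0.0493, adjusted p = 2.32e-12 from edgeR) and rose in shAnxa2 cells (0.73, SE 0.0493, adjusted p = 2.15e-11). Sugt1, an HSP90 co-chaperone, was the co-chaperone that fell in shAnxa2 cells (−0.23, SE 0.0623, adjusted p = 0.00262). Aarsd1 had the largest interaction of the list (2.72, SE 0.593) at a low level, with group means of 0.228 to 1.11 CPM. Of 14 ER chaperones, OGD/R was followed by 13 falls and 0 rises in shCtrl cells, and 10 rose and 0 fell in shAnxa2 cells, with medians of −0.61 and 0.33. Creld2, an ER stress-induced protein, fell by 1.28 on the log2 scale and rose by 0.79, with Manf, a secreted ER protein, at −1.13 and 0.48, each past the threshold. Hspa5, the HSP70 of the ER, fell in shCtrl cells (−0.48, SE 0.0469, adjusted p = 4.18e-09) and was at 0.05 (SE 0.0469, adjusted p = 0.375) in shAnxa2 cells. Without OGD/R 13 ER chaperones were lower and 0 higher in the shAnxa2 line, and after OGD/R 12 were higher and 0 lower.

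The remaining mitochondrial genes had list medians of the opposite sign to Hspd1 and Hspe1. Of 14 other mitochondrial chaperones and proteases, 7 rose and 2 fell after OGD/R in shCtrl cells, and 2 rose and 8 fell in shAnxa2 cells, with medians of 0.12 and −0.13. The shares over all genes tested were 32.4% higher and 31% lower in shCtrl cells and 28.2% and 26.8% in shAnxa2 cells. Hspa9, the HSP70 of mitochondria, had small changes of 0.13 (SE 0.0438, adjusted p = 0.00999 from edgeR) and −0.11 (SE 0.0437, adjusted p = 0.0292). The second call was lost without shAnxa2-CTRL replicate 3 (−0.09, adjusted p = 0.119), shAnxa2-OGDR replicate 2 (−0.11, adjusted p = 0.075) or shAnxa2-OGDR replicate 3 (−0.10, adjusted p = 0.0816). Clpb, which takes apart protein aggregates, rose by 0.49 in shCtrl cells and was at −0.34 in shAnxa2 cells, and Hscb, a J-domain protein of iron-sulfur cluster assembly, was at 0.78 and −0.29, all past the threshold. Grpel1, the exchange factor of mitochondrial HSP70, went with the 10 genes instead, at −0.35 and 0.19, both past the threshold. Between the lines, 8 genes of the list were higher and 1 lower in untreated shAnxa2 cells, and 4 were higher and 6 lower after OGD/R. For all genes tested, these shares were 29.5% higher and 29.7% lower without OGD/R and 33.8% higher and 34.2% lower after it.

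The other lists, mostly but not only of cytosolic proteins, were mixed. Their counts are read beside the whole tested set, of which OGD/R calls in the shCtrl line were upward for 32.4% and downward for 31%. In the shAnxa2 line the upward share was 28.2% and the downward share 26.8%. Whether any of these lists departs from such shares was not tested. Of 8 further HSP70 and HSP110 genes, 3 rose and 3 fell after OGD/R in shCtrl cells, and 2 rose and 1 fell in shAnxa2 cells. Hspa4, an HSP110, was among those with the pattern of the 10 genes (−0.45, SE 0.051, and 0.25, SE 0.051). Hspa4l, another HSP110, went the other way (0.48, SE 0.0557, and −0.61, SE 0.0552). It passed the threshold in both lines, at group means of 48.0 to 87.9 CPM. Hspa2 (0.92, SE 0.138) and Hspa12a (1.62, SE 0.237) rose in shCtrl cells from 4.05 and 1.096 CPM. Hspa14 changed by −0.35 and 0.17, past the threshold in both lines. In shAnxa2 cells its call was lost without shAnxa2-CTRL replicate 3 (0.13, adjusted p = 0.07) or shAnxa2-OGDR replicate 1 (0.12, adjusted p = 0.0854). Of 16 J-domain genes, 14 were tested, and 3 rose and 6 fell in shCtrl cells and 5 rose and 4 fell in shAnxa2 cells, with Dnajc2, a ribosome-bound co-chaperone, at −0.57 and 0.48, Dnajc9, a histone co-chaperone, at −0.48 and 0.57, and Dnajb14, a J-domain protein of the ER membrane, at 0.71 and −0.29. Dnajb13 was at 0.18 (adjusted p = 0.0881) and −0.36 (adjusted p = 0.00222), and passed in shCtrl cells too without shCtrl-CTRL replicate 2 (0.24, adjusted p = 0.0485). Of 14 chaperonin and prefoldin genes, which serve actin and tubulin, 1 rose and 6 fell in shCtrl cells and 4 rose and 2 fell in shAnxa2 cells, with Pfdn2 at −0.36 and 0.39. Of 8 small heat shock protein genes, 2 were tested, Hspb6 and Hspb7, and both rose in shCtrl cells (0.63, SE 0.176, and 0.53, SE 0.152) from 3.79 and 3.23 CPM. Hspb1 had at most 8 counts and Cryab at most 1 count in any library. Of 6 genes of heat shock factors and their regulator, 4 were tested, and 2 rose and 1 fell in shCtrl cells and 1 rose and 2 fell in shAnxa2 cells. Hsf1, which encodes HSF1, fell after OGD/R in shCtrl cells (−0.30, SE 0.0964, adjusted p = 0.00936) and rose in shAnxa2 cells (0.43, SE 0.103, adjusted p = 0.00107), at group means of 29.7, 24.1, 18.2 and 24.6 CPM from shCtrl-CTRL to shAnxa2-OGDR. Without shCtrl-OGDR replicate 2 the fall was −0.23 (adjusted p = 0.0701) and no longer called. Without OGD/R Hsf1 was lower in the shAnxa2 line (−0.70, SE 0.0997, adjusted p = 1.85e-06 from edgeR). After OGD/R it did not differ between the lines by the test (0.03, SE 0.0993, adjusted p = 0.833 from edgeR), unlike Hspa8 and Hsph1. These are RNA levels, and the activity of HSF1 was not measured. Hsbp1, whose product binds HSF1 and restrains it, went the other way from Hsf1 with OGD/R, at 0.41 (SE 0.0592) and −0.26 (SE 0.0602), both past the threshold.

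**Figure D4:**
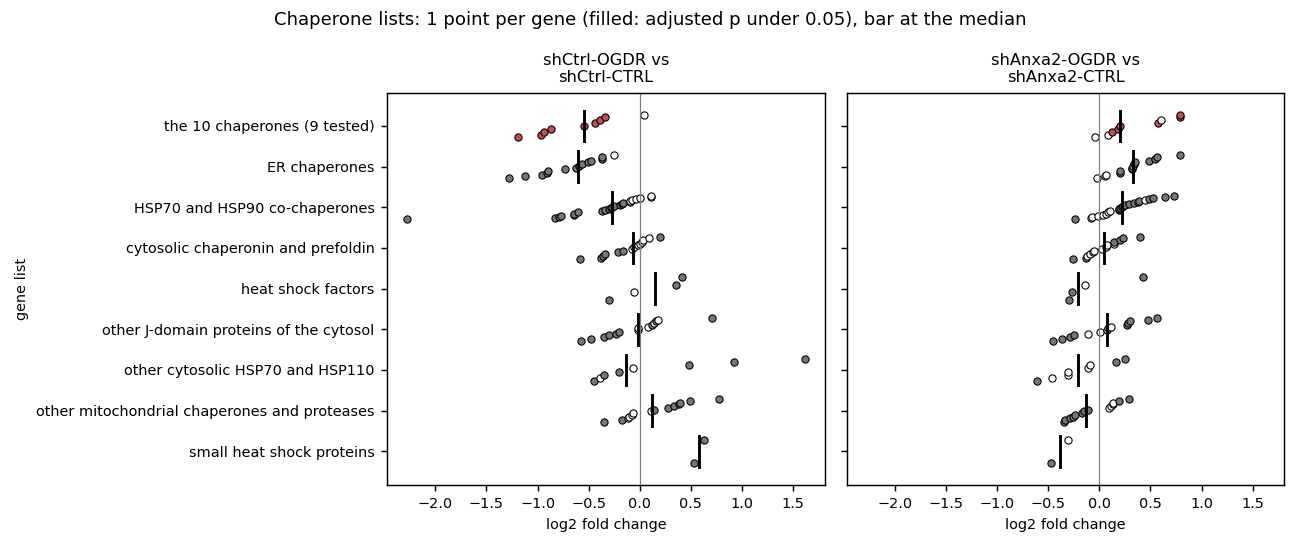
Log2 fold change with OGD/R (x axis) in shCtrl cells (left) and shAnxa2 cells (right) for every tested gene of the 10 chaperones (red) and of 8 other lists (grey, y axis), filled for an adjusted p under 0.05, with a bar at the median of each list. The medians of the 10 chaperones, the ER chaperones and the co-chaperones lie left of 0 in shCtrl cells (−0.55, −0.61 and −0.28) and right of 0 in shAnxa2 cells (0.20, 0.33 and 0.22).

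The chaperones varied together across the 12 libraries except Hsp90ab1. As a description over 12 libraries that share 4 groups, and with no test, Pearson's correlation of log2(CPM + 0.5) was 0.982 between Hspa8 and Hsph1 and 0.981 between Hspa8 and Dnaja1. Over the 28 pairs without Hsp90ab1 it was 0.513 to 0.982, and over the 8 pairs with Hsp90ab1 −0.297 to −0.113. Among the 8666 genes whose mean reached 10 CPM, those most like Hspa8 were Grwd1 (0.995), Mcm3 (0.994) and Mcm10 (0.994). Those most like Hsp90aa1 were Chordc1, a co-chaperone of HSP90 (0.963), Ndufaf4 (0.959) and Adss (0.956). Those most like Hspd1 were Nmd3 (0.979), Ddx3x (0.977) and Mtrex (0.974). Hspa1a was too low for this measure.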

How the data were processed

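Per the labels, total RNA of BV2 cells was made into libraries with a NEBNext Ultra kit. The authors deposited raw counts of reads per gene for 21834 protein-coding genes. The submitters' notes name HISAT2 2.0.4 and mm39, and the counting tool and its strand setting for these cells are not given in the sources used here. The table's 12 normalized columns were not used. Library totals were 19521877 to 27288843, and no 2 replicates agreed within counting error (chi-square per gene 4.00 to 13.3).

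edgeR 4.0.16 in R 4.3.3 was run on the counts as deposited with TMM factors. The 11626 genes that reached 0.5 CPM in 3 or more libraries entered 1 quasi-likelihood fit of the 12 libraries, with Benjamini-Hochberg adjustment. The steps were also run on simulated data, in which a small share of genes changed, and only in the shCtrl-OGDR group. In these data most tested genes were called, a setting that was not simulated. The p-values measure the spread between libraries, which the methods call biological replicates. Members and gene lists were chosen with earlier results of these data known. Hypoxia-induced and inflammatory genes that bear on the treatment labels were listed after the data had been seen. All 10 members are named, with Hsf1, Hspa5, Hspa9 and, per list, up to 2 genes with the highest and 2 with the lowest interaction past the threshold. Hspa4l was named later, as another HSP110, and was not recomputed in the alternatives. Alternatives used median-of-ratios factors, library totals, other filters, DESeq2 1.42.0, limma 3.58.1 (voom), only the groups compared, a replicate block, Hspa1a and Hspa1b summed, and each library left out.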

Additional observations from a re-analysis of the deposited data

Results flagged for a closer look

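The values below were singled out because the change with OGD/R differed between the shCtrl and shAnxa2 lines, by edgeR's interaction test with Benjamini-Hochberg adjustment (adjusted p under 0.05, in 34.9% of all genes tested above 0 and 35.1% below). Each value is the log2 fold change in shAnxa2 minus that in shCtrl. It rests on the treatment labels of the shAnxa2 groups, in which most hypoxia-induced genes moved opposite to the shCtrl line (median −1.02 over 18 genes).

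Among the 10 chaperones it was 1.98 for Hsph1, 1.75 for Hspa8, 1.55 for Hspa1b, 1.44 for Dnaja1, 0.64 for Dnajb1, 0.63 for Hsp90aa1, 0.57 for Hspe1 and 0.47 for Hspd1. The ratio of Hspa8 to Hsp90ab1 changed with OGD/R by −1.004 on the log2 scale in shCtrl cells and by 0.84 in shAnxa2 cells, with every library on the same side in each line. This difference between the lines was not tested.

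Of the co-chaperones and ER chaperones it was 2.72 for Aarsd1, 1.49 for Ahsa1, −0.35 for Sugt1, 2.07 for Creld2, 1.61 for Manf and 0.53 for Hspa5. In the other HSP70 and J-domain lists it was 0.70 for Hspa4, 0.52 for Hspa14, −1.23 for Hspa2, −2.08 for Hspa12a, 1.05 for Dnajc2, 1.04 for Dnajc9, −0.54 for Dnajb13 and −0.99 for Dnajb14. Mitochondrial genes gave 0.54 for Grpel1, 0.36 for Htra2, −0.83 for Clpb, −1.07 for Hscb and −0.25 for Hspa9. Prefoldin and chaperonin genes gave 0.76 for Pfdn2, 0.72 for Pfdn4, −0.20 for Cct4 and −0.25 for Pfdn5. Small heat shock proteins gave −0.94 for Hspb6 and −1.004 for Hspb7, and the heat shock factor list 0.73 for Hsf1, −0.50 for Hsf4 and −0.68 for Hsbp1. The call of Cct4 was lost without shCtrl-CTRL replicate 1 (−0.16, adjusted p = 0.0896 from edgeR), shCtrl-OGDR replicate 2 (−0.18, adjusted p = 0.0609), shAnxa2-CTRL replicate 3 (−0.17, adjusted p = 0.065) or shAnxa2-OGDR replicate 3 (−0.16, adjusted p = 0.0533), and that of Hsf4 without shCtrl-OGDR replicate 1 (−0.38, adjusted p = 0.0646).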

How the results depend on the processing

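Over the other settings, 936 values of the 9 tested chaperones were recomputed. Of these, 910 kept their direction and their side of the threshold, 17 lost a call, 9 gained one and 0 changed sign past the threshold. The counts of chaperones called ranged from 7 to 8 lower after OGD/R in shCtrl cells, 4 to 7 higher after OGD/R in shAnxa2 cells, 5 to 8 lower in untreated shAnxa2 cells and 7 to 8 higher in shAnxa2 cells after OGD/R, and 8 were above 0 in the interaction under all 20 other settings run. Besides the libraries left out, which are given with the comparisons, the call of Hspd1 after OGD/R in shAnxa2 cells was lost with library totals without TMM (adjusted p = 0.101 from edgeR), with no filter (0.0885) and with only the 2 groups fitted (0.0926), Dnajb1 between untreated lines was called with only the 2 groups fitted (adjusted p = 0.0499), and Hspa1b was called with no filter after OGD/R in shAnxa2 cells (0.0273) and between the lines after OGD/R (0.0234). The cause was not tested. Of 2907 values of the 28 other chaperone genes named (without Hspa4l), 2850 kept direction and side, 41 lost a call, 16 gained one and 0 reversed. Libraries with the same replicate number in their titles varied little together. The correlation of their deviations from the group means was −0.0779 to 0.184 and over 0.1 for 1 of 18 pairs. These values do not tell whether such libraries were prepared together. With the number as a block, Hspa1b after OGD/R in shAnxa2 cells was called (adjusted p = 0.0484), and no other call of the 9 genes changed. Depth limits Hspa1a and Hspa1b most, with at most 2 and 124 counts in a library.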
